A study of Homo sapiens with 4 samples.

Results

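The profiles described here are mouse and macrophage-like and came from human pancreatic tumours grown in mice. They carry transcripts of complement C1q and more UMIs (unique molecular identifiers, 1 per captured transcript) of Mmp12, Arg1, Gpnmb, Atp6v0d2 and Trem2 together than of the inflammatory cytokine genes Ccl3, Ccl4 and Il1b together. PANC-1, a human pancreatic ductal carcinoma line, had been grown under the skin of nude mice, which lack a thymus and mature T cells. The 4 single-cell libraries came from tumours under 4 labelled treatments: control, agrimoniin, erlotinib, and both agents (the combination). Agrimoniin is a plant ellagitannin, while erlotinib blocks the kinase of the epidermal growth factor receptor. The labels used here give no dose, duration, mouse age, strain beyond nude, or number of tumours pooled. There was 1 library per treatment, so no difference between treatments could be tested; every interval below is a 95% interval that covers counting error only.

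Each barcode held both human and mouse UMIs, and the mouse features of a barcode are called its mouse part. Whether a mouse part is 1 mouse cell, several cells that share a barcode, or free RNA was not tested. A mouse part was kept with at least 500 mouse UMIs, 250 mouse genes and at most 25% mitochondrial UMIs, which left 1053 parts. A C1q part had at least 0.3% of its mouse UMIs on C1qa, C1qb and C1qc and under 1% on Col1a1, Col1a2 and Col3a1; there were 484. A member was a C1q part with under 3 UMIs of the resident macrophage genes Lyve1, Cbr2, Cd163 and Clec10a whose sum over the 5 marker genes exceeded its sum over Ccl3, Ccl4 and Il1b. There were 111 members of 1053 kept parts: 28 in control, 24 under agrimoniin, 43 under erlotinib and 16 under the combination. The other 373 C1q parts comprised 305 in which the inflammatory sum was larger, 42 with 3 or more resident UMIs, and 26 in which the marker and inflammatory sums were equal.

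C1q is the recognition molecule that starts the classical complement cascade, and tissue and tumour macrophages are a main source of it. Trem2 is a lipid-sensing receptor of phagocytes, Mmp12 is macrophage elastase, Arg1 splits arginine into ornithine and urea, Gpnmb is a glycoprotein of lysosome-related compartments, and Atp6v0d2 is a subunit of the proton pump that acidifies lysosomes. In solid tumours these genes are known from macrophages that take up lipid and debris, whereas Ccl3, Ccl4 and Il1b mark macrophages in an inflammatory state. The rule therefore sets the first kind of transcript against the second within C1q-bearing parts.

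The working name of the set, after Mmp12 and Arg1, did not describe most members. Trem2 had a UMI in 105 of 111 members and supplied 51.8% of their marker UMIs. Mmp12 had a UMI in 34 members, Atp6v0d2 in 21, Arg1 in 17 and Gpnmb in 16. Of the 111 members, 57 held Trem2 as their only marker, 2 held Mmp12 alone, and none held Arg1, Gpnmb or Atp6v0d2 alone. Mmp12 and Arg1 were found together in 7 members. The members are therefore called Trem2-led C1q parts below. Trem2 itself was also present in most other C1q parts: 81.5% of those in control, 70.7% under agrimoniin, 71.6% under erlotinib and 72.4% under the combination held a UMI of it, against 3.4% to 6.5% of collagen-bearing mouse parts.

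Macrophage markers beyond the rule were checked as well. All 10 macrophage markers (Adgre1, Csf1r, Fcgr1, Mertk, Cd68, Lyz2, Tyrobp, Aif1, Fcer1g, Itgam) were detected in the members of every library, with summed levels of 9485 to 12250 CPM (mouse UMIs of a gene scaled to a fixed total of all mouse UMIs); in collagen-bearing parts the same sum was 65.9 to 315 CPM. The 6 natural killer markers were at 0 in members of all 4 libraries, and the 8 dendritic cell markers gave at most 1 UMI per library. Neutrophil, endothelial, pericyte, mast cell and B cell markers gave at most 18 UMIs per list and library. Monocyte markers summed to 200 to 342 CPM. Fibroblast markers summed to 975 CPM in control, 424 under agrimoniin, 644 under erlotinib and 356 under the combination, against 77030 to 94867 CPM in collagen-bearing parts. Lum was at 0 in the members of every library. The part of fibroblast RNA in the comparisons with control was not tested. In the same barcodes human MMP12, ARG1, ATP6V0D2, TREM2 and C1QA had 0 UMIs, while human GPNMB had 2 in control, 2 under agrimoniin, 1 under erlotinib and 1 under the combination, and human SPP1 had 1 under erlotinib.

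Many members sat close to the line. The marker sum exceeded the inflammatory sum by 1 UMI in 32 members and by 1 or 2 in 53. The excess was at least 5 UMIs in 33 members and at least 10 in 10. Just outside, in 67 parts that met every other criterion, the marker sum equalled the inflammatory sum or fell short of it by 1 or 2 UMIs. Per member, the marker sum had a median of 6 in control, 3.5 under agrimoniin, 5 under erlotinib and 4 under the combination, and ran from 1 to 53 over all members. The inflammatory sum had a median of 1, 2, 1 and 1.5 in the same order and was 0 in 36 members. Resident macrophage UMIs were 0 in 100 members. The members were chosen by these same UMI sums, so the values are a description.

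Members were a larger share of C1q parts in control and under erlotinib than in either library with agrimoniin. The share was 34.1% in control (28 of 82, exact binomial interval 24.0% to 45.4%), 17.1% under agrimoniin (24 of 140, 11.3% to 24.4%), 27.0% under erlotinib (43 of 159, 20.3% to 34.7%) and 15.5% under the combination (16 of 103, 9.1% to 24.0%). The intervals of control and of agrimoniin overlapped only at their edges. Among all kept mouse parts the shares were 13.9%, 8.1%, 14.1% and 6.4%. Median mouse UMIs per member also differed, at 4429 in control, 4082.5 under agrimoniin, 3517 under erlotinib and 2760 under the combination, and human UMIs made up a median 74.7%, 73.6%, 76.8% and 84.3% of the members' barcodes. When every part was thinned to 1000 mouse UMIs before the rule was applied, 83 parts qualified, 61 of them members of the full set. The shares were then 22.9% in control, 13.1% under agrimoniin, 21.5% under erlotinib and 11.4% under the combination, in the same order.

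**Figure D1:**
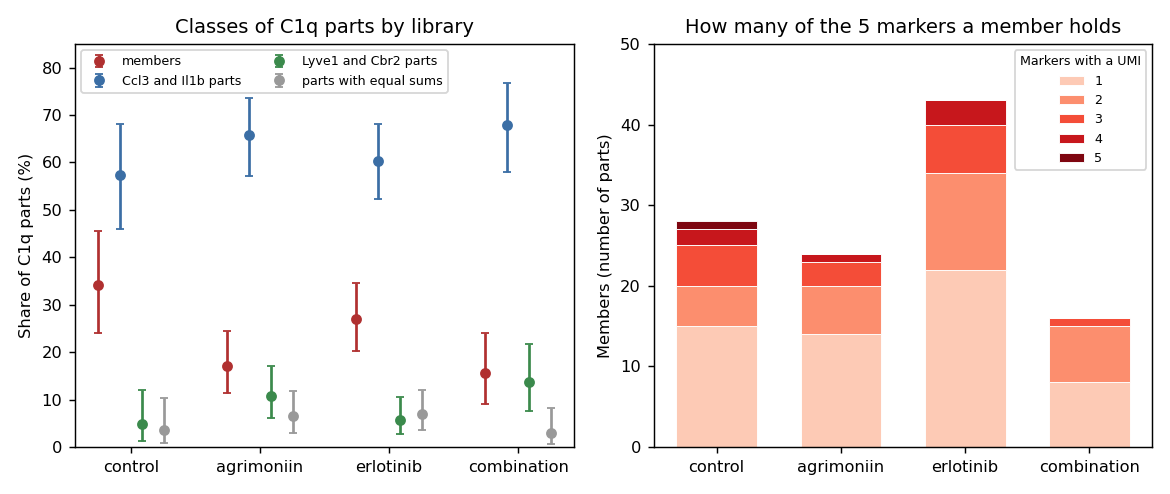
Left, share of C1q parts (%) in each class by library, with exact 95% binomial intervals; Trem2-led members are 34.1% in control, 17.1% under agrimoniin, 27.0% under erlotinib and 15.5% under the combination. Right, number of members by how many of the 5 marker genes they hold a UMI of; 59 of 111 hold 1 and 1 member, in control, holds all 5.

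The 5 marker genes were summed to choose the members, so their levels within members are a description and test no difference between treatments. Mmp12 had its highest level in control. Its level in members was 633 CPM in control (interval 506 to 783), 462 under agrimoniin (341 to 613), 308 under erlotinib (230 to 402) and 312 under the combination (170 to 523). Few members carried it: 12 of 28 control members had a UMI, 5 of 24 under agrimoniin, 14 of 43 under erlotinib and 3 of 16 under the combination, and 1 control member supplied 33 of the library's 85 UMIs. After thinning every part to 1000 mouse UMIs, 25% of control members, 20.8% under agrimoniin, 27.9% under erlotinib and 12.5% under the combination held Mmp12, so control was not the highest by this measure. In collagen-bearing parts, Mmp12 was at 1.7 to 12 CPM.

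Trem2 was spread over nearly all members. Its level was 923 CPM in control, 597 under agrimoniin, 928 under erlotinib and 1091 under the combination. It was lowest under agrimoniin. In the other C1q parts, which the rule also sorted by these genes, it was 582, 442, 531 and 568 CPM in the same order.

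Arg1 was found in 4 or 5 members of each library. Its level was 52 CPM in control, 173 under agrimoniin, 70 under erlotinib and 824 under the combination. The high value of the combination came from 1 member with 30 of the 37 UMIs, and the other 3 positive members there had 3, 3 and 1. Outside the members, 37 of the 41 Arg1 UMIs of other C1q parts under erlotinib came from 1 part with resident macrophage transcripts. After thinning to 1000 UMIs, Arg1 was found in 0 of 28 members in control, 3 of 24 under agrimoniin, 2 of 43 under erlotinib and 1 of 16 under the combination.

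Gpnmb and Atp6v0d2 were the scarcest markers. Gpnmb stood at 67 CPM in control, 106 under agrimoniin and 168 under erlotinib, and had 0 UMIs under the combination, where a count of 0 allows up to 66.8 CPM. Atp6v0d2 stood at 141, 77, 87 and 45 CPM in the order control, agrimoniin, erlotinib, combination. The Gpnmb levels rested on 9, 11, 29 and 0 UMIs and those of Atp6v0d2 on 19, 8, 15 and 2.

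**Figure D2:**
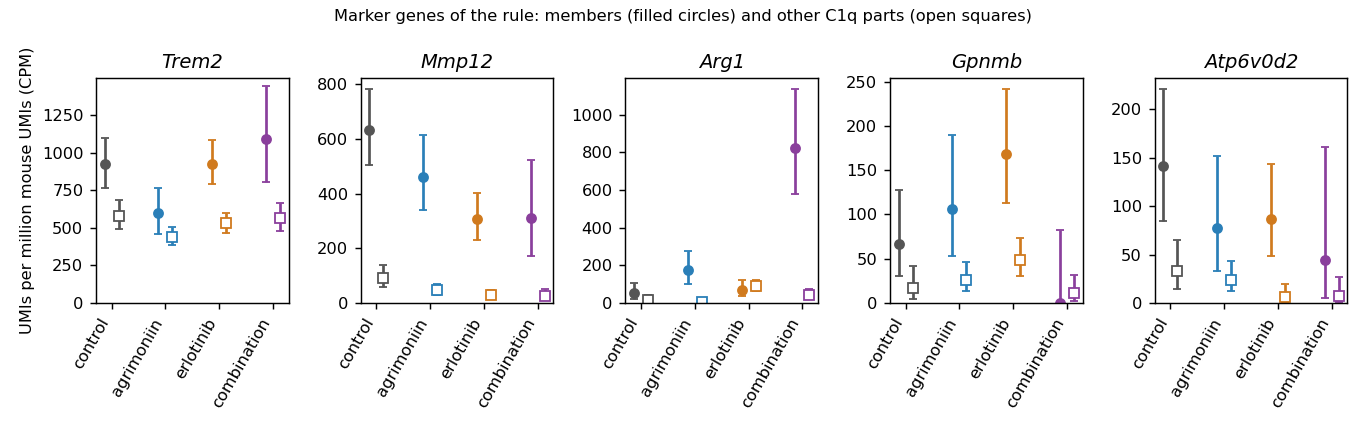
Level (CPM, linear axis) of the 5 marker genes in members (filled circles) and in other C1q parts (open squares) of each library, with exact 95% Poisson intervals. Trem2 lies between 442 and 582 CPM in other C1q parts, Mmp12 in members runs from 633 CPM in control to 308 under erlotinib, and the 824 CPM of Arg1 under the combination rests mainly on 1 member.

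The members were next set beside the other C1q parts of the same library. Since the rule compared marker with inflammatory UMIs, this contrast is partly its own making, and the values are a description. Of 1995 genes with a mean of at least 100 CPM, 308 were higher in members in all 4 libraries, which is 15.4% of the genes, and 215, or 10.8%, were lower in all 4. A ratio past 2-fold in all 4, on a log2 scale with 20 CPM added to each value, was reached upwards by 3 genes (0.15%), namely Mmp12, Adam8 and Fabp5, and downwards by 20 (1%). Mmp12 is a marker of the rule, and the 20 include its inflammatory genes Ccl3, Ccl4 and Il1b. The choice of members set the direction of these genes.

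Adam8, a membrane metalloprotease of myeloid cells, had 596, 424, 429 and 601 CPM in members of the control, agrimoniin, erlotinib and combination libraries, against 214, 139, 167 and 209 in other C1q parts. Fabp5, a fatty acid carrier, had 812, 462, 331 and 535 CPM against 227, 189, 149 and 191. Neither gene was in the rule, and for both the level in members exceeded that in other C1q parts in every library by ratios of 2.22 to 3.58. Hilpda, an inhibitor of lipid droplet breakdown that hypoxia induces, had 409, 289, 238 and 267 CPM against 161, 139, 121 and 161. The remaining genes of the 12 whose lowest ratio over the 4 libraries was highest were Anpep, Pianp, Cd300lb, Pld3, Itgb2, Psap, Pdgfa, Lgals3 and Lasp1. Pld3 and Psap encode lysosomal proteins; Psap, at 6202 to 7050 CPM, exceeded the other C1q parts by 1.49 to 2.38 times. Lgals3 encodes galectin-3 and stood at 2129, 1820, 1352 and 1760 CPM against 1011, 1084, 940 and 1111.

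Lipid and lysosome genes were higher in part. Of the 12 measured lipid-associated macrophage genes, 6 were higher in all 4 libraries and Plin2, the coat protein of lipid droplets, was lower in all 4. List medians were 0.26, 0.37, 0.43 and 0.31 (log2, in the order control, agrimoniin, erlotinib, combination) against 0.04, 0.07, 0.05 and 0.02 for all genes. Of all genes, 15.4% were higher and 10.8% lower in all 4 libraries. Lpl, lipoprotein lipase, fell below the 100 CPM filter but had 238, 193, 168 and 45 CPM in members against 41, 53, 24 and 7 in other C1q parts. Of 19 lysosome and proton pump genes, 7 were higher in all 4, among them Ctsb at 7560 to 9199 CPM against 5248 to 6509, and none was lower in all 4. Ctsl, a lysosomal cysteine protease, had 782, 539, 487 and 490 CPM against 301, 277, 380 and 359.

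Glycolysis genes were also higher. Of 9 measured features, 7 were higher in all 4 libraries and none lower in all 4. Of all genes, 15.4% were higher and 10.8% lower in all 4. The list medians were 0.59, 0.26, 0.32 and 1.05, against 0.04, 0.07, 0.05 and 0.02 for all genes. The glycolysis list of 12 genes matched 13 features. Pgk1, a kinase of the pathway's ATP-yielding steps, had 350, 462, 435 and 267 CPM against 210, 231, 220 and 194. Ldha, which makes lactate from pyruvate, had 231, 260, 209 and 423 CPM against 181, 183, 200 and 213. Of 6 hypoxia genes, 4 were higher in all 4; Vegfa, the vascular growth factor, had 856, 838, 1050 and 1114 CPM against 627, 739, 435 and 704. Slc16a3, a lactate exporter, gave 1, 1, 7 and 2 UMIs in members, too few to compare.

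Stress and inflammatory transcripts were lower. All 11 genes of the dissociation stress list (immediate-early and heat-shock genes known to be induced while tissue is digested) were lower in members in all 4 libraries, with medians of -1.41, -1.52, -1.02 and -1.55. Their summed level was 6790 CPM in members against 18425 in other C1q parts in control, 8118 against 22094 under agrimoniin, 8019 against 20647 under erlotinib and 7083 against 23077 under the combination. Of all genes, 10.8% were lower in all 4 libraries. Hspa1b, an inducible Hsp70, had ratios of 0.19, 0.27, 0.18 and 0.22, and the transcription factor gene Jun had 0.37, 0.39, 0.30 and 0.24. These tumours were digested with collagenase, and the part of digestion in the split between members and other C1q parts was not tested.

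Of 11 pro-inflammatory genes outside the rule, 8 were lower in all 4 libraries and none was higher in all 4. Among all genes 10.8% were lower and 15.4% higher in all 4. Tnf had 104, 183, 81 and 178 CPM in members against 272, 394, 233 and 653. Cxcl10, an interferon-induced chemokine, had 112, 19, 215 and 334 CPM against 837, 763, 986 and 1240. Of 5 interferon response genes 3 were lower in all 4; the antiviral gene Rsad2 had 119, 29, 174 and 200 CPM against 615, 521, 448 and 576. Class II antigen presentation genes stood close to the other C1q parts, with 3 of 6 higher in all 4 and medians of 0.14, 0.09, 0.26 and 0.22. C1qa, C1qb and C1qc themselves were within 0.73 to 1.19 times the other C1q parts.

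**Figure D3:**
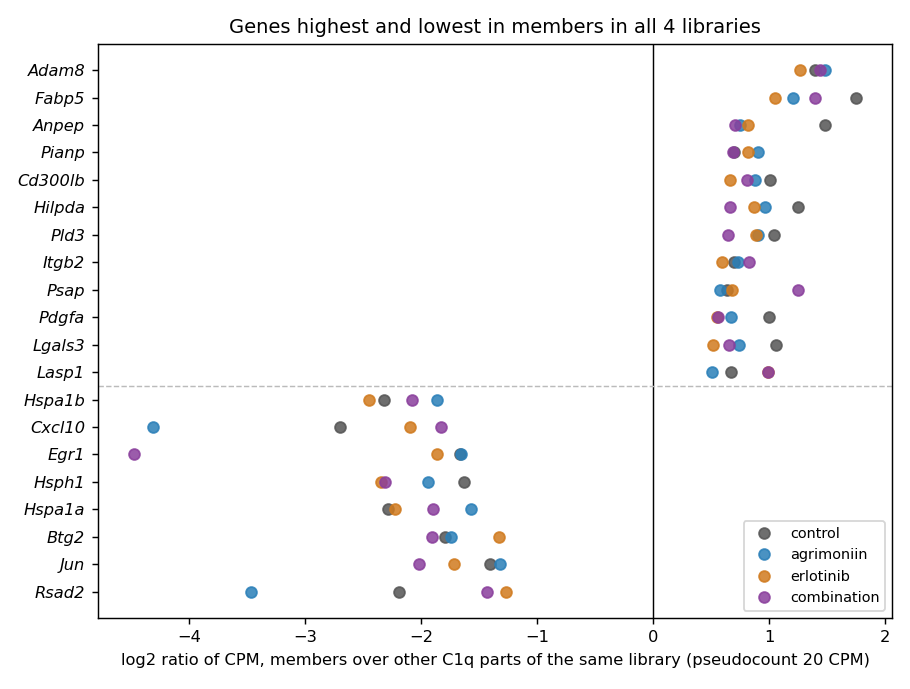
Log2 ratio of CPM in members over other C1q parts of the same library (20 CPM added to each) for 12 genes higher and 8 lower outside the rule, ranked by the least extreme of their 4 libraries; each point is 1 library. Adam8 lies between 1.27 and 1.48 in the 4 libraries and Hspa1b between -2.45 and -1.87.

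Members that held a marker other than Trem2 were set beside those with Trem2 alone. The 54 members with any other marker, 2 of which held Mmp12 alone, numbered 15, 10, 21 and 8 in the control, agrimoniin, erlotinib and combination libraries, and the 57 with Trem2 alone 13, 14, 22 and 8. The first set was also deeper in every library, with median UMIs of 5359, 4406.5, 4037 and 2850.5 against 3873, 3535, 3440 and 2490.5; the part of depth in this division was not tested. Fabp5 had 1120, 865, 523 and 790 CPM in members with another marker against 326, 139, 121 and 240 in those with Trem2 alone. Spp1, the secreted phosphoprotein osteopontin, had 1242, 821, 512 and 125 CPM against 211, 382, 351 and 0. Lyz2, macrophage lysozyme, had 6319, 10528, 7494 and 9568 CPM against 2415, 2675, 3514 and 5945. Adam8, Hilpda, Pld3, Ctsl, Capg, Cd63 and Lgals3 were likewise higher in all 4 libraries where another marker was present. So was Mrc1, a gene of resident macrophages. Lgals1 and Anxa1, of the lipid-associated list, were higher in only 1 library, as was Lasp1. Pdgfa was higher in 2 libraries. Pianp and Cd300lb were higher in 3, as were Lpl, Plin2, Cd9 and Lipa of the lipid-associated list. H2-Aa and H2-Eb1 were lower in all 4, with mean log2 differences of -0.52 and -0.49. No share over all genes is given for this division. Apoe, the lipid transport protein, differed little, with a mean log2 difference of 0.24. Stress genes were mixed. Fos had 3007, 2897, 2684 and 2371 CPM with another marker against 613, 1372, 981 and 3740 with Trem2 alone, higher in 3 of 4 libraries. Egr1 and Jun were higher in 2 libraries and Hspa1a and Hspa1b in 1. Hsph1, a heat-shock gene outside the stress list, was lower in all 4, on 1 to 17 UMIs.

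Lysozyme, stress genes, Apoe and mt-Co1 varied most over the members, among genes with a UMI in at least 20% of thinned members. The 4 libraries were pooled, so differences between libraries enter these values. After thinning to 1000 UMIs, Lyz2 had the largest variance relative to its mean over the 111 members (8.35), with a median of 4 UMIs and a highest value of 37. Fos followed at 6.40, with a UMI in 61 members and up to 23 in 1. Apoe (4.79), Hspa1a (4.67), Hspa1b (4.37) and mt-Co1 (4.25) came next. Lyz2 means by library were 4.14, 5.96, 5.40 and 7.19 thinned UMIs in the order control, agrimoniin, erlotinib, combination, and each library held members with at least 16.

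Each treated library was then compared with control, asking whether treatment went with different transcripts in these profiles. The 3 comparisons share the control library, and the counts below have no replicate to judge them by. Among genes with a mean of at least 100 CPM, 115 of 2048 (5.62%) lay past 2-fold under agrimoniin, 54 higher (2.64%) and 61 lower (2.98%). Under erlotinib 86 of 2091 (4.11%) did, 41 higher (1.96%) and 45 lower (2.15%). Under the combination 267 of 2063 (12.9%) did, 127 higher (6.16%) and 140 lower (6.79%). The combination library had 44897 UMIs over its members against 134311 in control, 103837 under agrimoniin and 172342 under erlotinib. The spread of log2 ratios over genes was 0.52, 0.48 and 0.67 (SD), where counting error alone gives 0.39, 0.34 and 0.52. The median gene stood at 0.03, -0.01 and -0.00. The genes given below as the 8 highest and 8 lowest were ranked by log2 ratio among those with a UMI in at least 20% of the members, and at most 25% of the UMIs from 1 member, in the library where the gene was higher. They were picked by these ratios, so their intervals describe counting error and test no difference. Many of them also passed the mean of 100 CPM only through the library where they were higher. Examples are Tmem176b under agrimoniin (173 CPM against 30 in control) and Fyn under erlotinib (157 against 45).

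Under agrimoniin, Stk17b ranked highest and Il7r lowest. Stk17b, a death-associated protein kinase gene, had 127 CPM in control and 587 under agrimoniin, a ratio of 4.64 (2.68 to 8.48). Il7r, the receptor chain for interleukin 7, had 588 CPM in control and 116 under agrimoniin, a ratio of 0.20 (0.10 to 0.36). In other C1q parts these 2 genes stood at 1.84 (1.42 to 2.41) and 0.45 (0.33 to 0.60). Pdia6, a protein disulphide isomerase, had 67 CPM in control and 260 under agrimoniin, and Herpud1, of the unfolded protein response, had 97 and 318. Tmem176b, Hs6st1, Zdhhc21, Crtc3 and Leprotl1 made up the 8 highest. The 8 lowest also held Gpr183, the oxysterol receptor, at 380 and 96 CPM, Vcam1, an adhesion molecule, at 275 and 67, and the interferon gene Ifi44 at 216 and 48, with Stk4, Spata13, Mylip and Zbtb7a. Other C1q parts stood on the other side of control for some of these genes, Stk4 among them: Tmem176b was at 0.64 (0.42 to 0.96) there, Zdhhc21 at 0.65 (0.33 to 1.29), Leprotl1 at 0.80 (0.48 to 1.34), Gpr183 at 1.26 (0.86 to 1.88) and Mylip at 1.12 (0.80 to 1.57). The rest stood on the same side as in members. Among them, Ifi44 was at 0.31 (0.21 to 0.44), Herpud1 at 1.65 (1.17 to 2.36) and Crtc3 at 2.67 (1.29 to 6.20).

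Cholesterol efflux genes were lower under agrimoniin in 7 of 7 measured, with a median of -0.66 against 0.03 for all genes, and 2 of the 7, Mylip and Abcg1, were past 2-fold. Npc1, which moves cholesterol out of lysosomes, had 201 CPM in control and 116 under agrimoniin, a ratio of 0.57 (0.27 to 1.17). The transporter gene Abca1 had 1459 CPM in control and 915 under agrimoniin, a ratio of 0.63 (0.49 to 0.81), and 0.69 (0.58 to 0.82) in other C1q parts. Apoe had 10662 and 7396 CPM, a ratio of 0.69 (0.63 to 0.76), and 0.74 (0.70 to 0.78) in other C1q parts. Over 14 alternative settings the list median lay between -0.89 and -0.58. Immune regulatory ligands were lower in 6 of 6 measured, with a median of -0.64 against 0.03 for all genes and none past 2-fold. Cd274, which encodes PD-L1, had 305 CPM in control, 164 under agrimoniin, 226 under erlotinib and 156 under the combination.

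Under erlotinib, H2-Eb1 and Pdia6 were higher and lipid-associated genes lower. Pdia6 had 67 CPM in control and 308 under erlotinib, a ratio of 4.59 (2.24 to 10.6). In other C1q parts the Pdia6 ratio was 1.30 (0.91 to 1.87). The other high genes, 9330111N05Rik, Fyn, Nono, Rap2a, Ifnar1 and Zfp703, rested on 27 to 77 UMIs under erlotinib and 6 to 22 in control. Gpr183 had the lowest ratio, with 380 CPM in control and 70 under erlotinib (0.18, 0.09 to 0.35), and was 0.25 (0.11 to 0.51) under agrimoniin. Rufy3, Trim8, Capn2, Gbp2, Pik3r1, Fabp5 and Rpl36al made up the 8 lowest. Fabp5 had 812 CPM in control and 331 under erlotinib, a ratio of 0.41 (0.29 to 0.57), with 0.66 (0.45 to 0.96) in other C1q parts. Nono, Rap2a, Rufy3, Trim8, Capn2, Pik3r1 and Rpl36al stood on the other side of control in other C1q parts. Their ratios there ran from 0.91 for Rap2a to 1.26 for Capn2, with intervals that held 1. The rest stood on the same side as in members.

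Of 13 measured lipid-associated genes, 12 were below control under erlotinib and 1 of these past 2-fold. The list median was -0.43 against -0.01 for all genes, and lay between -0.59 and -0.33 over 14 alternative settings. Under agrimoniin 10 of 13 were below control (median -0.28) and under the combination 10 of 13 (median -0.28), with 4 past 2-fold. For all genes the medians were 0.03 under agrimoniin and -0.00 under the combination. Of all genes, 2.15% were 2-fold lower under erlotinib and 6.79% under the combination. Spp1 had 841 CPM in control, 578 under agrimoniin, 435 under erlotinib and 67 under the combination. Of its control UMIs, 36.3% came from 1 member, a spread between members that the counting intervals do not cover. The Spp1 ratios to control were 0.69 (0.49 to 0.95), 0.52 (0.38 to 0.70) and, from 3 UMIs, 0.08 (0.02 to 0.24). In other C1q parts the Spp1 ratios were 0.31 (0.24 to 0.40), 0.72 (0.58 to 0.88) and 0.33 (0.24 to 0.45). The medians of agrimoniin and of the combination did not keep their sign in every alternative, reaching 0.11 and 0.01.

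Under the combination the 16 members gave few UMIs per gene. Dusp1, a phosphatase that ends MAP kinase signals and belongs to the immediate-early genes, had 633 CPM in control and 1626 under the combination, a ratio of 2.57 (1.85 to 3.55), with 34.1% of its control UMIs in 1 member. Its log2 ratio of 1.33 fell to 0.30 when Trem2 was left out of the marker sum and lay between 0.97 and 2.20 in the other alternatives. Zfp703 had 164 and 512 CPM. In other C1q parts the ratios to control were 1.92 (1.71 to 2.16) for Dusp1 and 2.02 (1.41 to 2.93) for Zfp703. Dennd1a, Tug1, Ubald2, Ppp1r18, Snrpg and Xbp1 rested on 9 to 11 UMIs. The 8 lowest were Nus1, with 0 UMIs against 28 in control, and Dock10, Lnpep, Trim25, Ifi44, Arl5a, Baz2b and Acap2, each with 1 or 2. These 8 passed the filter on the mean through control, and Dennd1a, Tug1, Ubald2, Ppp1r18, Snrpg and Xbp1 through the combination. Spp1, at a log2 ratio of -3.31, was outside the ranking because 36.3% of its control UMIs came from 1 member. Xbp1 and Dennd1a changed sign under 1 alternative each. Dennd1a, Ubald2, Snrpg, Nus1, Trim25, Baz2b and Acap2 stood on the other side of control in other C1q parts.

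**Figure D4:**
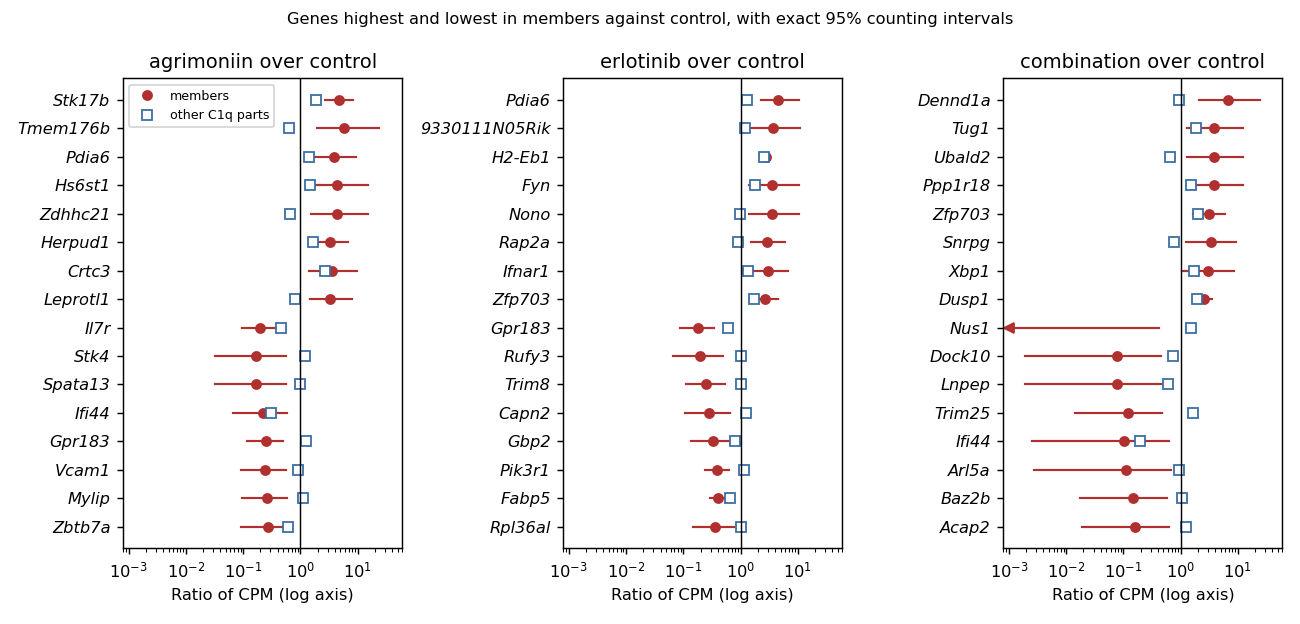
Ratio of CPM to control (log axis) for the 8 highest and 8 lowest genes of each treated library, in members (filled circles, exact 95% counting intervals) and in other C1q parts (open squares); the arrow marks Nus1, with 0 UMIs under the combination. Il7r lies at 0.20 in members under agrimoniin and H2-Eb1 at 2.84 in members under erlotinib.

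H2-Eb1, the beta chain of the class II molecule I-E, was higher in each treated library than in control. Members had 2077 CPM in control, 4314 under agrimoniin, 5895 under erlotinib and 4076 under the combination. The ratios to control were 2.08 (1.78 to 2.42), 2.84 (2.48 to 3.25) and 1.96 (1.62 to 2.37), with the control library below each treated one. Other C1q parts had nearly the same ratios, 2.13 (1.92 to 2.36), 2.56 (2.32 to 2.84) and 1.75 (1.56 to 1.96), so the difference was not particular to the members. Of the 6 measured class II genes 2 were above control under agrimoniin, 5 under erlotinib and 1 under the combination, and H2-Eb1 was the only 1 past 2-fold, under agrimoniin and erlotinib. H2-DMa, part of the peptide-loading molecule, had 164, 299, 313 and 111 CPM in the order control, agrimoniin, erlotinib, combination, and H2-DMb1, its partner chain, had 298, 260, 371 and 223. H2-Aa had 4743, 3766, 4862 and 3631 CPM, H2-Ab1 had 4303, 3168, 4102 and 3163, and Cd74, the invariant chain, had 4557, 4343, 4955 and 3185. The class II list median was -0.13, 0.21 and -0.42 against control. The labels do not say whether the 4 tumours came from mice of 1 stock, and animal and treatment cannot be told apart.

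**Figure D5:**
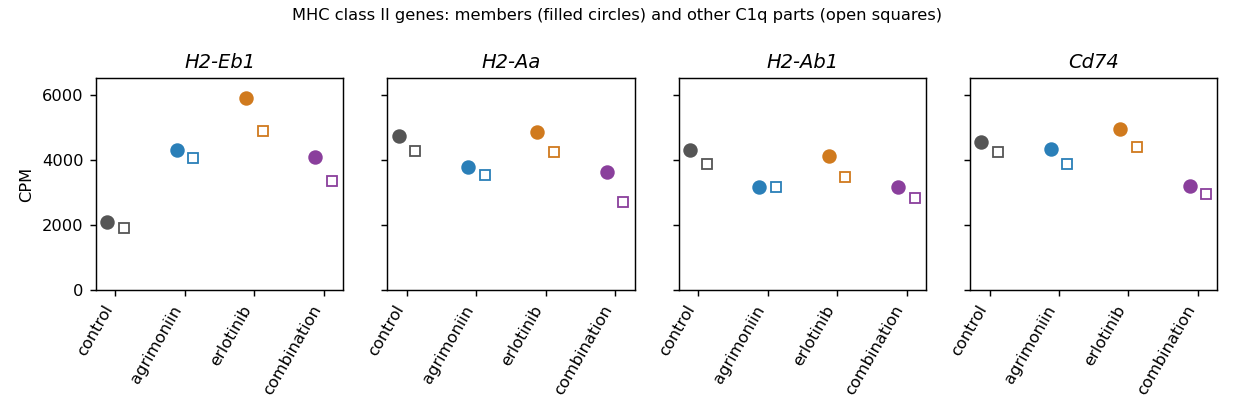
Level (CPM, linear axis from 0) of 4 class II genes in members (filled circles) and other C1q parts (open squares) by library. H2-Eb1 stands at 2077 CPM in control members and 4076 to 5895 in treated ones, while H2-Aa, H2-Ab1 and Cd74 keep between 3163 and 4955.

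Stress and inflammatory lists gave no stable difference from control. The dissociation stress median was 0.40, 0.15 and -0.18 and the pro-inflammatory median 0.22, -0.34 and 0.67 under agrimoniin, erlotinib and the combination, and each of these 6 medians took both signs over the alternative settings. Glycolysis medians were -0.07, -0.20 and -0.00. Ldha stood at ratios to control of 1.13 (0.65 to 1.95), 0.90 (0.54 to 1.51) and 1.83 (0.98 to 3.35), and Vegfa at 0.98 (0.73 to 1.30), 1.23 (0.97 to 1.56) and 1.30 (0.91 to 1.83). Tnf stood at 1.76 (0.83 to 3.78), 0.78 (0.34 to 1.76) and 1.71 (0.62 to 4.37). At this depth the counting intervals of these 3 genes held a ratio of 1 in every treated library. With 1 library per treatment this tests no difference.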

How the data were processed

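Each library was a matrix of raw UMI counts per feature and barcode, deposited by the authors for human (hg38) and mouse (mm10) features together and, per the submitters' processing notes, made with Cell Ranger; no version is given there. The libraries held 202 to 306 barcodes, and 0 barcodes were shared between them. The deposited barcodes have 27 bases, so how they were built is not known. Doublets were not called, because both species appeared in every barcode. UMIs were summed over the parts of a class and divided by the summed mouse UMIs (CPM). Log2 ratios used a pseudocount of 20 CPM and genes with a mean of at least 100 CPM; 2-fold is a size, not a test. Intervals are exact (binomial, Poisson, or binomial given the sum of both counts) at 95%. For the Gpnmb count of 0 the level of 3 counts is also given. The computations used Python 3.11.15, numpy 2.4.6 and scipy 1.17.1 and were checked on simulated counts.

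Genes were named by rule: the rule's genes, C1qa to C1qc, Spp1, Ldha, Slc16a3, Vegfa and Tnf; against other C1q parts, the 12 highest and 8 lowest by their least extreme library; against control, the 8 highest and 8 lowest with a UMI in at least 20% of the members of the higher library and at most 25% of UMIs from 1 member; from each list, 2 to 4 of the largest changes; and the 6 most variable. Cd274, Lpl, Capg, Hsph1, the class II genes and the genes of the Trem2 division were chosen after their values were seen. Members, lists and rules were chosen with earlier results of these data known. One text of the series names an agent other than erlotinib; the sample labels were followed. Some genes of the marker lists are not reported here, and the sums leave them out.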

Additional observations from a re-analysis of the deposited data

How the results depend on the processing

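Differences between treatments rest on 16 to 43 members and 1 library each, so depth limits most genes; the cause of each change below was not tested. No paired analysis was possible because each treatment had 1 library. Where values are given in threes they are agrimoniin, erlotinib and the combination, each against control. Among the 20 named genes set against other C1q parts, 279 of the 320 recomputed values stayed within the range of the 4 libraries, and among the 48 named against control 648 of 672 stayed within their counting intervals. Both totals include settings that could not move a value. A changed filter on low values leaves the ratio of a single gene as it was. A collagen limit of 0.5% kept the same 111 members, so no ratio to control could change.

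Counts of genes past 2-fold were 1139, 820 and 2559 with no filter on low values and 12, 11 and 29 with a mean of at least 300 CPM. They were 280, 155 and 649 with a margin of at least 3 UMIs, 283, 247 and 1145 with barcodes of at most 75% human UMIs (2 members remained under the combination), 389, 342 and 707 when Trem2 was left out of the marker sum (chosen after seeing the data), and 243 and 157 for agrimoniin and erlotinib when the rule was applied after thinning. The number of genes tested could change with the setting, so these counts do not compare sizes of difference. Over the 14 alternatives the share past 2-fold ran from 2.11% to 19.6% under agrimoniin and from 1.95% to 16.9% under erlotinib. Under the combination it ran from 5.08% to 49.6%. The main setting gave 5.62%, 4.11% and 12.9%. The genes 2-fold higher than other C1q parts in every library numbered 5 without a filter, 1 with no resident UMIs, 1 after thinning and 7 without Trem2. Those 2-fold lower numbered 8 after thinning, 11 with at most 75% human UMIs and 10 without Trem2. The main setting gave 3 genes higher (0.15%) and 20 lower (1%). No share over all genes is given for the alternatives, and these counts include the rule's own genes.

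Member shares of C1q parts were 6.4% under agrimoniin, 15.1% under erlotinib and 4.9% under the combination with a margin of 3 UMIs, and 22.9% in control after thinning. Without Trem2 they were 11% in control and 5.7%, 7.5% and 3.9% in the treated libraries. The combination had 6.25% with at most 75% human UMIs. Control kept the highest share in all 9 alternatives for this value.

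Under agrimoniin, the lipid-associated median was 0.11 with a margin of 3 UMIs and 0.029 without Trem2 (both reversed), -0.52 at 300 CPM, -0.067 with no resident UMIs, -0.54 with at most 75% human UMIs and -0.014 without the deepest member. Its class II median was 0.20 without a filter and -0.36 after thinning, and its pro-inflammatory median -0.39 after thinning and 0.59 without the deepest member. Its stress median was -0.55 both with a margin of 3 UMIs and without Trem2 (reversed), 0.68 as a mean over parts, 0.14 after thinning, 0.092 with at most 75% human UMIs, 0.71 with at most 10% mitochondrial UMIs and 0.90 without the deepest member. The median of the rule's own markers reversed to 0.18, 0.62, 0.26, 0.25 and 0.069 with no resident UMIs, a margin of 3 UMIs, at most 10% mitochondrial UMIs, without the deepest member and without Trem2, and that of matrix proteases to 0.12 with the margin and 0.27 without Trem2.

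Under erlotinib, the glycolysis median was 0.10 at 300 CPM and 0.21 with at most 75% human UMIs. The pro-inflammatory median was 0.35 with at most 10% mitochondrial UMIs and 0.40 without the deepest member (both reversed), -0.64 with the margin, -1.17 after thinning and -0.75 without Trem2. The stress median was 0.43 as a mean over parts, 0.89 with no resident UMIs, -0.32 after thinning, 0.40 with at most 75% human UMIs, 0.91 with at most 10% mitochondrial UMIs, 0.84 without the deepest member and -0.60 without Trem2. Immune regulatory ligands reversed to 0.44 at 300 CPM and 0.15 after thinning.

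Under the combination, the glycolysis median was 0.93 after thinning, and the class II median -1.39 with the margin, -1.14 after thinning and -0.96 without Trem2. The pro-inflammatory median reversed to -0.48 both with the margin and without Trem2, to -0.079 with at least 2500 mouse UMIs and to -0.68 with at most 75% human UMIs, and was 0.046 without a filter, 0.079 at 300 CPM, 1.31 with no resident UMIs, 0.21 after thinning, 1.32 with at most 10% mitochondrial UMIs and 1.45 without the deepest member. The stress median was 0.29 with no resident UMIs, 0.15 with the margin, 0.50 after thinning, 0.77 both with at most 75% human and at most 10% mitochondrial UMIs, 0.43 without the deepest member and -0.72 without Trem2. With the margin Xbp1 reversed to a log2 ratio of -0.12 and, against other C1q parts, Cd300lb to -0.025; with at most 75% human UMIs Dennd1a reversed to -1.52.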
